A study of Homo sapiens with 4 samples.

Results

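The globin genes are the 10 protein-coding genes of the human alpha-globin and beta-globin clusters: HBZ, HBM, HBA2, HBA1 and HBQ1 of the alpha cluster and HBE1, HBG2, HBG1, HBD and HBB of the beta cluster. They were chosen by symbol, through the Ensembl identifiers of the count table, and all 10 were found among its 20348 genes. The study measured poly-A RNA of K562, an established line from chronic myeloid leukemia with erythroid features, and of THP-1, an established line from acute monocytic leukemia. Each line was kept for 72 h in DMSO, the solvent control, or in 100 nM periplocin, a cardiac glycoside from Cortex Periplocae. The control libraries carry DMSO in their names and in the methods, although their titles read as blank controls. Each condition had 1 library (4 altogether), so no difference has a replicate check: intervals and p-values cover counting error only and compare these libraries, not the conditions.

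Hemoglobin is a tetramer of paired alpha-type and beta-type chains around heme. The genes of each cluster lie in the order in which they are used in development, and each cluster is driven by its own distant enhancers. HBZ and HBE1 encode the embryonic zeta and epsilon chains, HBG2 and HBG1 the fetal gamma chains, HBB the adult beta chain and HBD the minor adult delta chain, while HBA2 and HBA1 encode the alpha chain of both fetal and adult hemoglobin. HBM encodes the mu chain and HBQ1 the theta chain, which are not known parts of the common hemoglobins. K562 cells are known for embryonic and fetal globins, for lacking the adult beta chain, and for making more hemoglobin under many unrelated inducers.

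On GRCh38 with the GENCODE release 29 annotation, the alpha-type genes lie on the plus strand of chromosome 16, HBZ (ENSG00000130656) at 152687 to 154503, HBM (ENSG00000206177) at 153892 to 166768, HBA2 (ENSG00000188536) at 172876 to 173710, HBA1 (ENSG00000206172) at 176680 to 177522 and HBQ1 (ENSG00000086506) at 180453 to 181181. The beta-type genes lie on the minus strand of chromosome 11, HBE1 (ENSG00000213931) at 5268345 to 5505652, HBG2 (ENSG00000196565) at 5253190 to 5505605, HBG1 (ENSG00000213934) at 5248079 to 5249859, HBD (ENSG00000223609) at 5232678 to 5243657 and HBB (ENSG00000244734) at 5225464 to 5229395. The long spans of HBE1 and HBG2, 237308 and 252416 bp, come from annotated transcripts that start far upstream and run across OR51B olfactory receptor genes on the same strand. HBD spans the pseudogene HBBP1 and HBM overlaps HBZP1, neither of which is a row of the count table, and HBM also overlaps HBZ.

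The sequences bear directly on how reads can be assigned among the members. The coding part of the first exon of HBA1 (chr16:176717-176811, plus strand) is the same as that of HBA2 (chr16:172913-173007), and HBZ (chr16:152910-153004) differs from them at 41 of these 95 bases, shown in capitals and written 5′ to 3′ from the ATG.
HBA1 and HBA2: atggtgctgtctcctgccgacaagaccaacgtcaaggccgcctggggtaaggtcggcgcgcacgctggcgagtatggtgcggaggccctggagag
HBZ: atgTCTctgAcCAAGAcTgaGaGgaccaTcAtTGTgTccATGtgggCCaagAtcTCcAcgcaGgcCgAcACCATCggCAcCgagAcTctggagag
Over the whole coding sequence HBA1 and HBA2 were identical at 426 of 426 bases, so that their reads can be told apart only outside it, whereas HBZ shared 68.5% of aligned bases with either.

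The same part of HBG2 (chr11:5254637-5254728, minus strand) equals that of HBG1 (chr11:5249713-5249804), and HBE1 (chr11:5269799-5269890) differs from them at 18 of 92 bases, again in capitals.
HBG2 and HBG1: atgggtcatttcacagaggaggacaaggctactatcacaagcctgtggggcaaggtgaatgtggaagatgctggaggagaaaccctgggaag
HBE1: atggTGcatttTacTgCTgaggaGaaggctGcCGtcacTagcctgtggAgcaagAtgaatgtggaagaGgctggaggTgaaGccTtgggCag
The gamma genes agree at 439 of 441 coding bases. The differences are T227C and G410C, with the HBG2 base first, the position counted from the A of the ATG, and then the HBG1 base, and the capitals below mark them within coding bases 197 to 256 and 380 to 439.
HBG2, first stretch: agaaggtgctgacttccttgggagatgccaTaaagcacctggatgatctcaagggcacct
HBG1, first stretch: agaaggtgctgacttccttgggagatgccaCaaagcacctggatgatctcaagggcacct
HBG2, later stretch: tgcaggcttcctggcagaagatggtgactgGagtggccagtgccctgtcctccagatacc
HBG1, later stretch: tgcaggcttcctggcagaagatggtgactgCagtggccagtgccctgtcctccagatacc
The split of counts between HBA1 and HBA2, and between HBG1 and HBG2, is therefore uncertain, and their sums are given as well. A further protein-coding gene, ENSG00000284931 (AC104389.5 in GENCODE), is annotated from HBG1 to HBG2 on the same strand at 5248270 to 5254783, and it held 4146, 18213, 13 and 21 counts in K562 DMSO, K562 periplocin, THP-1 DMSO and THP-1 periplocin. Its counts are added to the gamma genes where that alters a result, together with those of ENSG00000239920 (AC104389.4), with 111, 249, 0 and 0 counts in the same order.

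Of the members only HBD and HBM had a RefSeq window around the annotated start (GRCh38.p14). HBZ, HBA2, HBA1, HBQ1, HBE1, HBG2, HBG1 and HBB had none. The 120 bases before each start are shown because HBD was the lowest of the members that rose and HBM was the member with no count.
HBD (chr11:5234484-5234603, minus strand): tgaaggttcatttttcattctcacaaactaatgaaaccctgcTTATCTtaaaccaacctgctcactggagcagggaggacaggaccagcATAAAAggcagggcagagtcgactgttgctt
HBM (chr16:165858-165977, plus strand): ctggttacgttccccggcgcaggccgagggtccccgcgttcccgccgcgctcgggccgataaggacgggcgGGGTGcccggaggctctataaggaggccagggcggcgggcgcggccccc
The search took 5 motifs on both strands over the 250 bases before the start: the CCAAT box, the CACCC box, the GATA site AGATAA, the TATA-like ATAAAA, and TGACCA. In HBD the capitals mark the GATA site at -78 from the start, read on the other strand, and the TATA-like motif at -31, and a CCAAT box was found at -153, outside the bases shown. In HBM the capitals mark the CACCC box on the other strand, at -49. Among 35116 RefSeq windows, 32.0% held the CCAAT box, 54.7% the CACCC box, 9.17% the GATA site, 14.8% the TATA-like motif and 9.19% TGACCA, so that each match is a description only.

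The libraries held 16381172, 16560554, 20622719 and 17721504 counts in K562 DMSO, K562 periplocin, THP-1 DMSO and THP-1 periplocin, and mitochondrially encoded genes took 5.62%, 2.07%, 5.24% and 3.92% of them. Marker levels followed the labels of the lines. All 10 erythroid markers were above the floor of 3 counts in both K562 libraries, and their summed level rose from 1842 to 6506 CPM (counts scaled to a common library total). In THP-1 6 of 10 were above the floor at 255.6 and 247.2 CPM, with GYPB at 0 and with TFRC, the transferrin receptor of dividing cells, holding 5083 and 4246 of these counts, whereas all 10 monocyte markers were above it at 1185 and 1550 CPM. In K562 the monocyte markers summed to 110.7 and 126.4 CPM, the megakaryocyte markers to 41.21 and 99.15 CPM with PF4 at 0, and the lymphocyte markers to 8.73 and 7.065 CPM with CD2 and MS4A1 at 0. TUBB1 alone held 449 and 1446 of the megakaryocyte counts, while ITGB3 went from 30 to 73 and ITGA2B from 126 to 56. The part of these marker levels in the globin values was not tested.

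In K562 the globins rose together under periplocin. They took 0.188% of all counts in the DMSO library (95% Wilson interval 0.186 to 0.190) and 1.05% in the periplocin library (1.04 to 1.05), or 30740 and 173554 counts. After scaling by TMM, the trimmed mean of M-values, this was 5.54-fold (exact interval 5.48 to 5.61). In bulk RNA a larger share of cells that express globin and more globin RNA per cell cannot be told apart. In THP-1 the globins were near the floor of the assay, with 76 counts in DMSO and 47 in periplocin, 0.000369% and 0.000265% of all counts.

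A gene was called at an adjusted p below 0.05 and an at least 2-fold change, in edgeR's exact binomial test at dispersion 0 with Benjamini-Hochberg adjustment over all genes tested. In K562 8 of the 10 members were called higher and 0 lower, against 8.18% of the 15919 genes tested called higher and 10.1% called lower. Of the other two, HBB was not called and HBM had no count to test. The calls rest on the absence of a replicate error: at an assumed dispersion of 0.16 only HBA2 was still called (adjusted p = 0.04), among 100 of the 15919 genes.

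**Figure D1:**
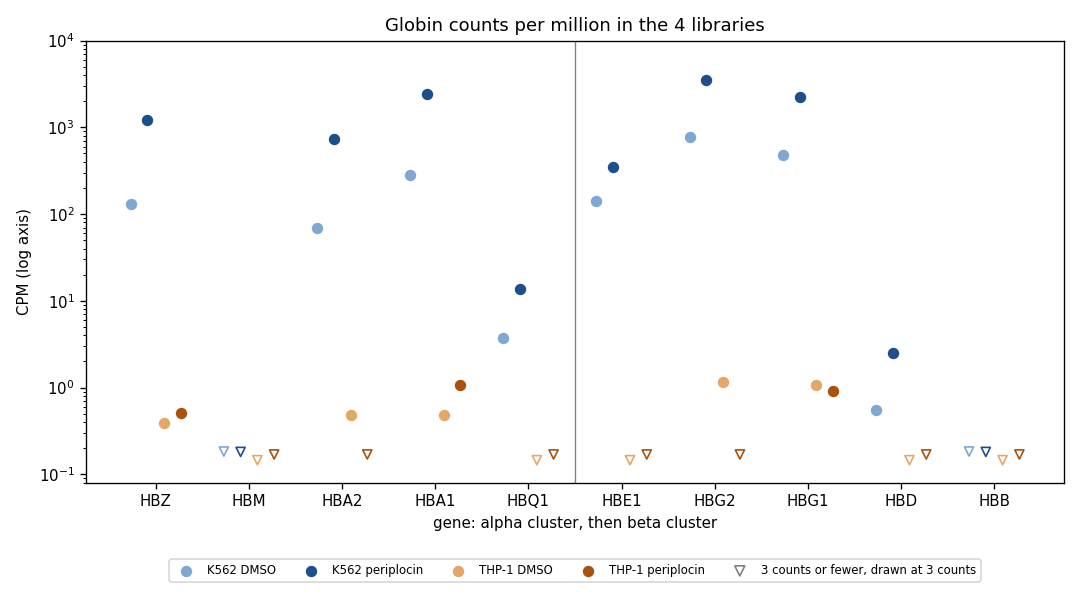
Level of each globin (log axis, CPM) in each of the 4 libraries, with 1 point a library, and open triangles at 3 counts for a member with 3 counts or fewer. In K562 8 members lie above the triangles in both libraries, each higher in periplocin, while in THP-1 none exceeds 1.164 CPM.

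Among the alpha-type genes, HBZ, the embryonic zeta chain, had 2119 counts in K562 DMSO and 19908 in K562 periplocin, a 9.23-fold rise (exact interval 8.82 to 9.65) or 3.21 on the log2 scale. HBA1 had 4625 and 40067 counts, 8.51-fold (8.25 to 8.77). HBA2 had 1138 and 12070 counts, 10.4-fold (9.80 to 11.1). The fold of the embryonic gene thus lay between those of the HBA1 and HBA2 genes, whose split is uncertain. The summed HBA1 and HBA2 counts went from 5763 to 52137, 8.88-fold (8.64 to 9.13), which does not depend on how reads were split within the pair. HBQ1, the theta chain, was much lower, with 61 and 229 counts, and rose less, 3.69-fold (2.77 to 4.97; adjusted p = 1.01e-22). HBM was listed at 0 in all 4 libraries. By counting error alone this allows up to 0.183 CPM in K562 DMSO and 0.181 CPM in K562 periplocin. HBM overlaps HBZ on the same strand, and how reads were assigned between them is not known.

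Of the beta-type genes, HBG2 had 12616 and 58012 counts and rose 4.52-fold (4.43 to 4.60). HBG1 had 7877 and 37482 counts and rose 4.67-fold (4.56 to 4.79). These fetal gamma genes carried most of the beta-type counts in both libraries, and as a sum they went from 20493 to 95494, 4.58-fold (4.51 to 4.65). Adding the overlapping loci left this at 4.52-fold (4.46 to 4.58). HBE1, the embryonic epsilon chain, had 2295 and 5741 counts and rose 2.46-fold (2.34 to 2.58), the smallest fold among the 8 called members.

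The adult beta-type genes stayed scarce. HBD had 9 and 42 counts, 4.58-fold with a wide interval (2.20 to 10.7; adjusted p = 8.93e-06). HBB, the adult beta chain, had 0 counts in DMSO and 3 in periplocin, both at or under the floor, and no fold is given (adjusted p = 0.339). The 42 HBD and 3 HBB counts compare with 95494 gamma counts in the same library.

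**Figure D2:**
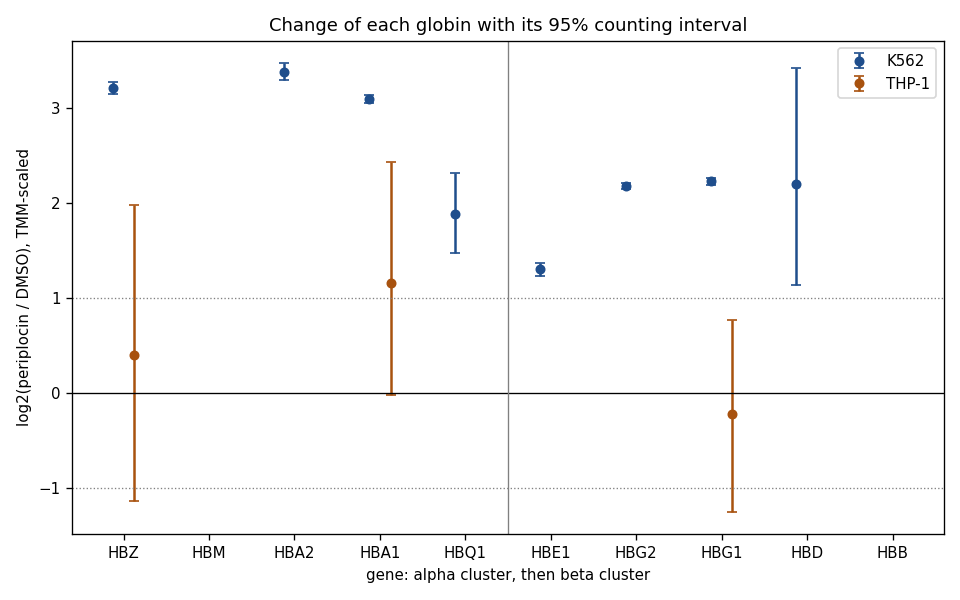
Log2 ratio of periplocin to DMSO for each globin above 3 counts in both libraries of a line, with its 95% exact counting interval, and dotted lines at 1 and -1. The K562 points for HBZ, HBA2 and HBA1 lie between 3.09 and 3.38, those of HBG2, HBG1 and HBD near 2.2 and HBE1 at 1.296, whereas the 3 THP-1 intervals include 0.

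The members did not respond alike within K562. The alpha-type sum rose from 7943 to 72274 counts, 8.93-fold (8.73 to 9.15), and the beta-type sum from 22797 to 101280, 4.36-fold (4.30 to 4.43). The median log2 fold change was 3.15 for the 4 alpha-type genes with at least 1 CPM and 2.18 for the 4 such beta-type genes, beside -0.01 for all genes at that level. Within the beta cluster, the log2 response of HBE1 was below that of HBG2 by -0.88 (95% counting interval -0.95 to -0.80) and differed from that of HBG1 by -0.93 (-1.01 to -0.85). HBG2 and HBG1 differed by -0.05 (-0.09 to -0.005), a value within what the splitting of reads could change. HBD could not be set apart, since its interval against HBE1 ran from -1.94 to 0.14 and against HBG2 from -1.06 to 1.02.

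Within the alpha cluster HBQ1 rose less than the other members, with log2 differences of 1.32 from HBZ (0.91 to 1.74), 1.50 from HBA2 (1.08 to 1.92) and 1.21 from HBA1 (0.80 to 1.62). HBZ exceeded HBA1 by 0.12 (0.04 to 0.20) and differed from HBA2 by -0.18 (-0.28 to -0.07). Both values rest on how reads were split between HBA1 and HBA2.  The embryonic genes of the clusters parted from each other: HBZ counts were 0.923 of HBE1 counts in DMSO (0.870 to 0.980) and 3.47 times HBE1 counts in periplocin (3.37 to 3.57), a log2 difference in response of 1.91 (1.814 to 2.004).

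Shares within a cluster do not depend on library scaling. HBZ made up 26.7% of the alpha-type counts in K562 DMSO (Wilson interval 25.7 to 27.7) and 27.5% in K562 periplocin (27.2 to 27.9), a difference of 0.868 percentage points (Newcombe interval -0.168 to 1.88) that is within counting error. HBA1 and HBA2 together made up 72.6% and 72.1%, differing by -0.416 points (-1.44 to 0.628). HBQ1 went from 0.768% to 0.317%. For HBZ and for the HBA pair the intervals stayed within 2 points in either direction.

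In the beta cluster the make-up did move. The share of HBE1 fell from 10.1% (9.68 to 10.5) to 5.67% of the beta-type counts (5.53 to 5.81), a difference of -4.40 points (-4.82 to -3.99), although its own count rose. The gamma pair went from 89.9% to 94.3%, a difference of 4.39 points (3.98 to 4.82). HBD stayed at 0.0395% and 0.0415%, and HBB reached 0.00296% in periplocin. As a share of all globin counts, HBZ and HBE1 together were 14.4% and 14.8%, differing by 0.420 points (-0.0103 to 0.842).

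**Figure D3:**
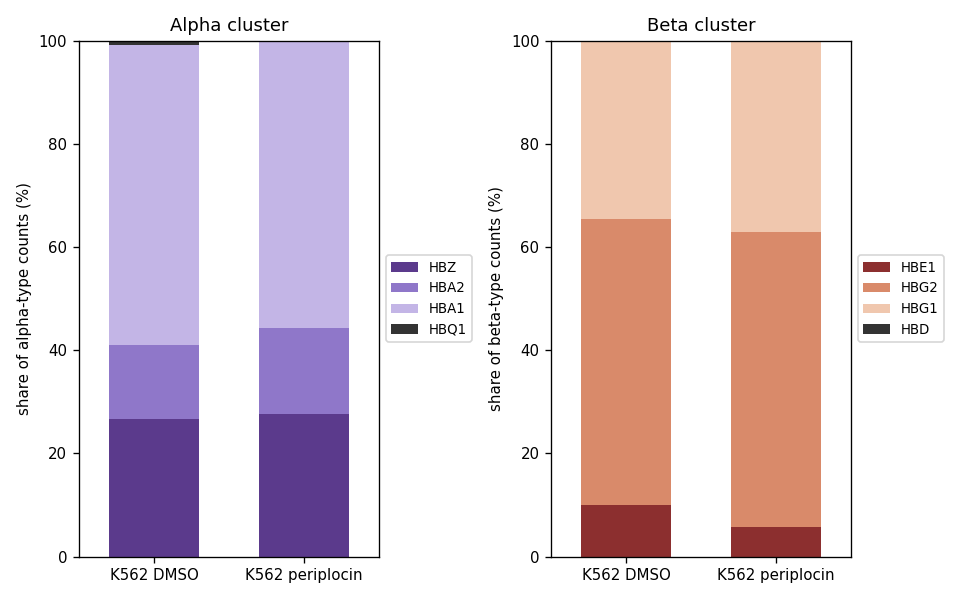
Share of the alpha-type counts and of the beta-type counts (percent) taken by each member in the K562 DMSO and K562 periplocin libraries, as stacked bars. HBZ keeps 26.7% and 27.5% of the alpha-type counts, while HBE1 goes from 10.1% to 5.67% of the beta-type counts.

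The split within the near-identical pairs moved too, less in the gamma pair than in the alpha pair. HBG2 was 61.6% of the gamma counts in K562 DMSO and 60.7% in K562 periplocin, a difference of -0.813 points (-1.55 to -0.0769). HBA1 was 80.3% and 76.8% of the alpha pair, a difference of -3.40 points (-4.48 to -2.30). What part of these splits the counting program made was not tested.

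The balance of the clusters shifted toward the alpha type. In K562 there were 0.348 alpha-type counts for each beta-type count in DMSO (exact interval 0.340 to 0.357) and 0.714 in periplocin (0.707 to 0.720), a 2.05-fold change (1.99 to 2.10). With the overlapping loci added to the beta type, the ratios were 0.294 and 0.604 and the change 2.06-fold. Beta-type counts still outnumbered alpha-type counts 1.40 to 1 in the periplocin library, from 2.87 to 1 in DMSO.

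Levels are compared between genes as CPM per kilobase of coding sequence. The order is given for this length only. The places of HBA1, HBA2, HBG1 and HBG2 in it rest on the uncertain split within each pair. In K562 periplocin HBA1 exceeded HBG1 by a ratio of 1.11 (1.09 to 1.12), without the 18213 counts of the overlapping ENSG00000284931. In K562 DMSO the order was HBG2 at 1746, HBG1 at 1090, HBA1 at 663, HBE1 at 318, HBZ at 304, HBA2 at 163, HBQ1 at 8.74 and HBD at 1.25. Neighbours in this order differed beyond counting error except HBE1 and HBZ, with a ratio of 1.05 (0.986 to 1.11). In K562 periplocin the order became HBG2 at 7943, HBA1 at 5679, HBG1 at 5132, HBZ at 2822, HBA2 at 1711, HBE1 at 786, HBQ1 at 32.5, HBD at 5.75 and HBB at 0.411, and each neighbouring pair differed beyond counting error.

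HBE1, which was above HBA2 and not set apart from HBZ in DMSO, was below both in periplocin. Among 20044 genes ranked on this scale, HBG2 went from rank 35 to rank 2, HBA1 from 158 to 4, HBG1 from 84 to 5, HBZ from 440 to 10, HBA2 from 995 to 24 and HBE1 from 411 to 113. HBG2, HBA1 and HBG1 thus stood among the first 5 genes of the K562 periplocin library by this measure, with the split within each pair uncertain. HBQ1 went from rank 8859 to 5050 and HBD from 11268 to 9380.

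In THP-1 the globins sat near the floor. Counts in DMSO and periplocin were 8 and 9 for HBZ, 10 and 19 for HBA1, 10 and 0 for HBA2, 2 and 3 for HBE1, 22 and 16 for HBG1 and 24 and 0 for HBG2. HBM, HBQ1, HBD and HBB were at 0 in both. Among members with counts, neighbours in the order of levels did not differ beyond counting error in either THP-1 library. The step to the members at 0 has no interval.

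Of the 6 members that could be tested in THP-1, 0 were called higher and 2 lower, against 8.28% and 9.76% of 16020 genes tested. HBG2 was at least 6.82-fold lower (adjusted p = 1.65e-06) and HBA2 at least 2.84-fold lower (adjusted p = 0.00482) in periplocin, taking 3 counts as the floor of the library at 0. At an assumed dispersion of 0.04 the HBA2 call was lost (adjusted p = 0.0649). Both are partners of near-identical genes that were not called. HBA1 and HBA2 summed went from 20 to 19 counts, 1.12-fold (0.563 to 2.20). HBG1 and HBG2 summed went from 46 to 16, 0.408-fold (0.216 to 0.734), and with the overlapping loci from 59 to 37, 0.736-fold (0.474 to 1.13), which includes no change.

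HBZ, with 1.32-fold (0.452 to 3.93), HBG1, with 0.853-fold (0.419 to 1.70), and HBA1, with 2.23-fold (0.986 to 5.37; adjusted p = 0.0645), were not called in THP-1. The alpha-type sum was 28 counts in each library, 1.17-fold after scaling (0.670 to 2.06). All globins together were 0.726-fold (0.493 to 1.06). The 5.54-fold rise seen in K562 lies outside that interval, which covers counting error only and leaves out the overlapping loci.

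Without periplocin the lines differed widely in globin RNA. All globins together were 468-fold lower in THP-1 DMSO than in K562 DMSO (374 to 595), and the 8 members that could be tested were all called lower, against 19.5% of 16431 genes tested. HBA1 was 536-fold lower (291 to 1118), HBG2 609-fold (409 to 950), HBG1 415-fold (274 to 662), HBZ 307-fold (155 to 711) and HBA2 132-fold (71.4 to 276). HBQ1, at 0 in THP-1, was at least 23.6-fold lower and HBD at least 3.47-fold lower. HBE1 had 2295 counts in K562 and 2 in THP-1, a ratio with a counting interval of 367 to 10980.

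The responses of the lines differed for 5 members in a saturated fit of cell line, treatment and their interaction at dispersion 0 (edgeR likelihood ratio test, Benjamini-Hochberg over all genes). In each the THP-1 response lay below that of K562, against 8.09% of 17197 genes tested, with 0 members and 8.95% of genes the other way. The log2 response of HBG1 differed by -2.46 (adjusted p = 1.25e-06), that of HBZ by -2.82 (adjusted p = 0.000683) and that of HBA1 by -1.95 (adjusted p = 0.00464). HBG2 and HBA2, at 0 in THP-1 periplocin, differed by -4.95 and -4.89 with that library set to 3 counts. At an assumed dispersion of 0.04 3 of the 5 members still differed. By sums, which do not rest on the split, the alpha type differed by -2.94 (-3.69 to -2.18) and the beta type with the overlapping loci by -2.50 (-3.08 to -1.93).

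The genes that switch and drive globins were called about as often as all genes. Of 30 globin regulators 3 were called higher and 3 lower in K562, beside 8.18% and 10.1% of all genes tested, with a median log2 fold change of 0.37 among the 28 at 1 CPM or more. KLF1, an activator of the adult beta gene, had 1428 and 4883 counts and rose 3.36-fold (3.17 to 3.56). LDB1, which bridges the distant enhancer to the globin promoters, had 2589 and 7268 counts and rose 2.76-fold (2.64 to 2.88). MYB, a factor of immature cells known to hold back fetal globin, had 8071 and 2592 counts and fell to 0.315-fold (0.302 to 0.330).

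KLF2 was low, with 15 and 4 counts, and fell to 0.262-fold (0.0633 to 0.822). GATA1, the central erythroid factor, had 2715 and 4959 counts, 1.79-fold (1.71 to 1.88), under the 2-fold limit. BCL11A, the main repressor of the gamma genes, was at the floor in K562 with 3 and 0 counts, and ZBTB7A, another gamma repressor, had 622 and 993 counts, 1.57-fold (1.42 to 1.74), also under the limit. In THP-1 1 regulator was called higher and 3 lower of 30 tested, beside 8.28% and 9.76% of all genes tested. There BCL11A had 255 and 49 counts and fell to 0.225-fold (0.163 to 0.307), and NR2F2 had 41 and 12 counts and fell to 0.343-fold (0.164 to 0.666). MYB had 12669 and 5441 counts, 0.504-fold (0.488 to 0.520), just short of the limit. NR2F2 was also called lower in K562, with 2688 and 1364 counts and a log2 fold change of -1.005. GATA1 and KLF1 were at or under the floor in both THP-1 libraries, at 3 and 2 and at 3 and 1 counts.

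Most of the genes that supply heme and stabilise free alpha chains rose in K562. Of 13, 8 were called higher, 0 lower and 5 not called, beside 8.18% of all genes called higher, with a median log2 fold change of 1.39. AHSP, the chaperone that binds free alpha chains, had 8 and 160 counts and rose 19.6-fold (9.73 to 46.3). ALAS2, the erythroid first enzyme of heme synthesis, had 1483 and 10789 counts and rose 7.14-fold (6.77 to 7.55). FECH, which puts iron into the heme ring, had 1445 and 7116 counts and rose 4.84-fold (4.57 to 5.12).

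CPOX, an earlier step of the pathway, had 621 and 2408 counts and rose 3.81-fold (3.48 to 4.17). In THP-1 0 of 12 tested were called higher and 2 lower, beside 8.28% and 9.76% of all genes tested. UROS had 590 and 167 counts there and fell to 0.332-fold (0.278 to 0.395), and PPOX had 213 and 90 counts and fell to 0.496-fold (0.383 to 0.637). AHSP was at 0 in both THP-1 libraries and ALAS2 at 3 in each.

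Of 9 genes that clear hemoglobin and break down heme, 4 were at or under the floor in both K562 libraries. Of the 8 tested 4 were called higher and 0 lower, beside 8.18% and 10.1% of all genes tested. HMOX1, heme oxygenase, had 4 and 16 counts in K562, 3.93-fold (1.27 to 16.1; adjusted p = 0.0212), and 40 and 344 in THP-1, 10.1-fold (7.26 to 14.4). LRP1, a receptor that takes up heme bound to hemopexin, had 121 and 472 counts in K562 and rose 3.83-fold (3.13 to 4.72). BLVRB and BLVRA, the biliverdin reductases, rose 2.22-fold (2.15 to 2.31) and 2.16-fold (1.99 to 2.34). HMOX1 was the 1 called of 9 tested in THP-1, beside 8.28% of all genes called higher and 9.76% called lower there. Of the globins outside the clusters, MB, CYGB, NGB and ADGB, 0 of the 3 that could be tested in K562 were called. Of all genes tested in K562, 18.3% were called in either direction.

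Of 19 red cell membrane and enzyme genes 18 were called higher in K562 and 0 lower, beside 8.18% and 10.1% of all genes tested, and the median log2 fold change was 1.62. EPB42, a membrane skeleton protein, had 24 and 1374 counts, 56.2-fold (37.62 to 88.04). AQP1, the water channel, had 80 and 2911 counts, 35.7-fold (28.6 to 45.2), and also rose in THP-1, from 11 to 250 counts. CA1, carbonic anhydrase, rose 17.9-fold (16.3 to 19.8), and SLC4A1, the anion exchanger band 3, rose 17.6-fold (16.7 to 18.7). Of 18 tested in THP-1, 1 was called higher, AQP1, and 1 lower, ANK1, with 157 and 61 counts. Of all genes tested there, 8.28% were called higher and 9.76% lower.

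**Figure D4:**
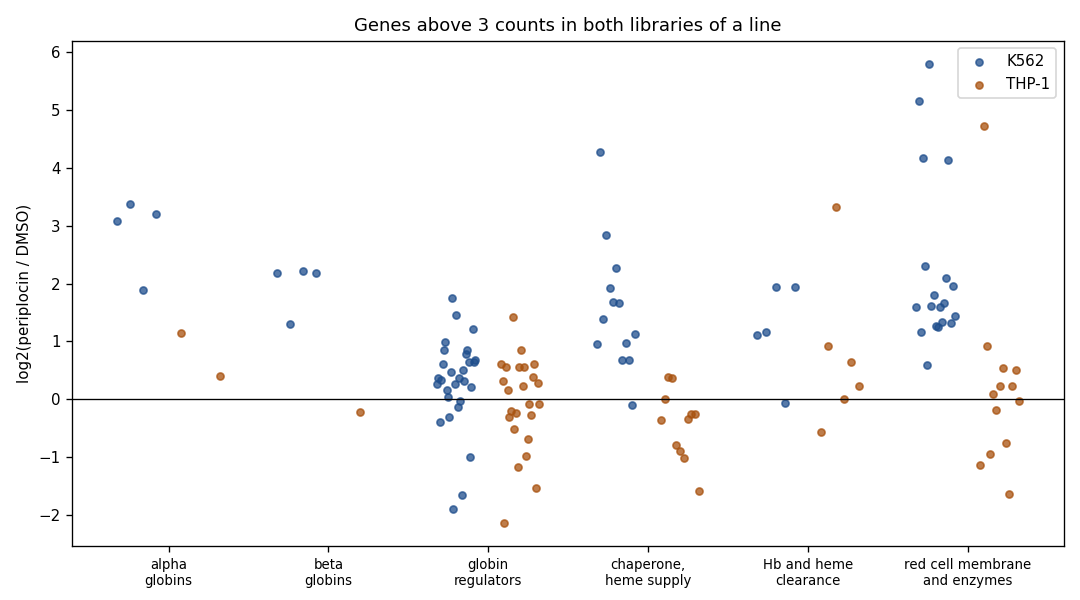
Log2 ratio of periplocin to DMSO in K562 and THP-1 for globins and the related gene lists, with 1 point a gene above 3 counts in both libraries of the line. In K562 the 4 alpha globins lie between 1.88 and 3.38 and the 4 beta globins between 1.296 and 2.22, while the 29 regulators plotted range from -1.90 to 1.75.

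Genes on either side of the clusters were compared with the globins as well. Of 11 neighbours of the alpha cluster 0 were called in either direction in K562, beside 18.3% of all genes tested, with a median log2 fold change of 0.04 among the 8 at 1 CPM or more. At an unadjusted p under 0.05 4 of the 11 differed, RHBDF1, NPRL3, LUC7L and AXIN1, each by less than 2-fold. The share of all genes under that unadjusted p is not given here. This count therefore has no background and does not set the neighbours apart from other genes. NPRL3, whose introns hold the alpha-globin enhancers, had 1087 and 1887 counts, 1.70-fold (1.58 to 1.84), and LUC7L, beyond HBQ1, had 673 and 1202 counts, 1.75-fold (1.59 to 1.93), both under the 2-fold limit. LUC7L and AXIN1 are named outside the naming rule, after their values were seen. In THP-1 NPRL3 had 414 and 168 counts and fell to 0.476-fold (0.396 to 0.571), and RHBDF1 had 68 and 150 counts and rose 2.59-fold (1.93 to 3.50). These were the 1 called lower and the 1 called higher of 10 tested. That is close to the 9.76% and 8.28% of all genes tested there.

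Around the beta cluster 1 of 17 tested neighbours was called higher in K562 and 5 lower, beside 8.18% and 10.1% of all genes tested. OR51B5, an olfactory receptor gene inside the long spans of HBG2 and HBE1, had 607 and 197 counts and fell to 0.319-fold (0.270 to 0.375). OR51B4, also inside them, had 403 and 182 counts and fell to 0.443-fold (0.370 to 0.530). Reads from these overlapping same-strand genes could be shared with HBG2 and HBE1, which went the other way. Overlaps on the other strand were not searched, although the kit named in the labels does not mark strand. OR52A5 had 11 counts and 1 count, and TRIM22, an interferon-induced gene at the far end, had 15 and 79 counts and rose 5.17-fold (2.95 to 9.67). TRIM22 also rose in THP-1, with 105 and 669 counts, 7.48-fold (6.08 to 9.27).

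**Figure D5:**
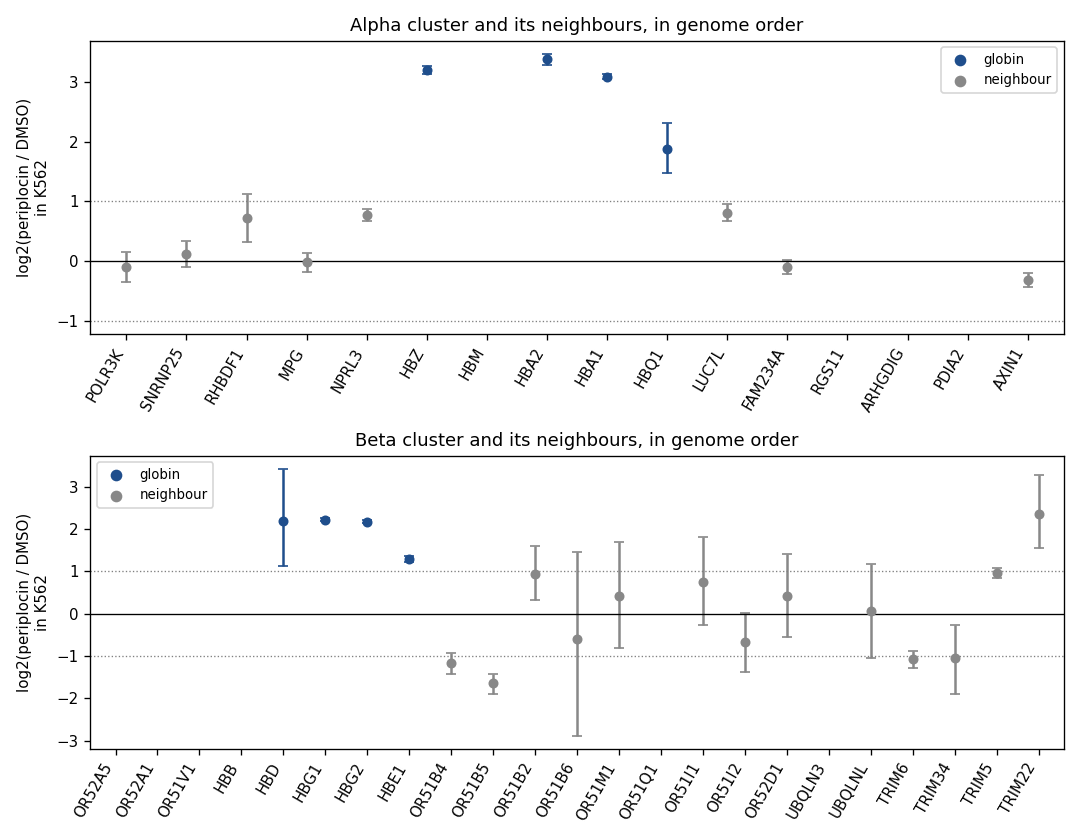
Log2 ratio of periplocin to DMSO in K562 for the members and the neighbouring genes of each cluster in genome order, with 95% counting intervals. Genes with 3 counts or fewer in either library have no point, and dotted lines stand at 1 and -1. The alpha-cluster neighbours lie between -0.32 and 0.81 beside HBZ, HBA2 and HBA1 above 3, and OR51B4 and OR51B5 lie below 0 next to HBE1.

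The genes whose levels over the 4 libraries were most like the summed globins were sought among 9213 genes that averaged 10 CPM or more over the K562 libraries, by the Euclidean distance between centred profiles of log2(TMM-scaled CPM + 1). For the alpha-type sum the nearest included ENSG00000284931 (distance 1.32), which overlaps the gamma genes, RHAG (1.33), ALAS2 (1.47) and SLC4A1 (1.61). For the beta-type sum they included RHAG (1.27), FAM83A (1.97), NMU (1.98) and ENSG00000284931 (2.13). RHAG, a Rh blood group associated membrane protein, had 7340, 18767, 10 and 5 counts in the order of the libraries above. These distances rest on 4 libraries, are set mostly by the gap between the lines, and are a description only.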

How the data were processed

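Poly-A RNA of K562 and THP-1 cells was sequenced as paired-end reads after 72 h in DMSO or 100 nM periplocin, with 1 library per condition, which the study's methods state. Per the labels, HISAT2, StringTie 1.3.1 and the hg38 build were used in processing, without a role for each, and the annotation and counting program are not given in the sources used here. For 20348 genes the authors deposited expected counts, which are raw and unpooled. Of these genes 20118 were found in GENCODE release 29 and 20310 had a symbol. Between 87.4% and 88.3% of these values, zeros included, are exactly whole, so counting error is the least error they can have. The kit named in the labels does not mark strand. The table held 0 unused columns.

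Expected counts were rounded. Each pair was scaled by TMM in edgeR 4.0.16 (R 4.3.3), whose exact binomial test at dispersion 0 was run on every gene with at least 1 count, with Benjamini-Hochberg adjustment. Called genes had an adjusted p below 0.05 and at least a 2-fold change. The interaction of line and treatment was fitted with all 4 libraries at dispersion 0. Fold intervals are exact, shares have Wilson and differences of shares Newcombe intervals, all at 95%, and 3 counts were the floor. Coding sequences came from GENCODE release 29 and promoters from RefSeq (GRCh38.p14). Tested on simulated data with 200 changed genes, the comparison within K562 recovered 200 with 1 other call among 15477 genes. The simulation drew counting error only, which the test assumes, and planted large changes in well-counted genes. It therefore gives no rate of false calls under variation between replicates. Named genes were all members, up to 4 called genes per list with the largest change in K562 and 2 in THP-1, and BCL11A, ZBTB7A, KLF1, GATA1, MYB, AHSP and ALAS2. The members and lists were chosen with earlier results of these data known. Alternatives covered scaling (DESeq2 1.42.0 size factors, total counts), filters, dispersion, the fold limit, unrounded counts, summed pairs and counts per length. Of the genes most alike in pattern to the summed globins, 1 gene is not reported here.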

Additional observations from a re-analysis of the deposited data

Results flagged for a closer look

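The 5 values below were singled out because the response to periplocin differed between the cell lines in the test of the difference itself, which covers counting error only. The log2 response in THP-1 minus that in K562 was -2.82 for HBZ, -1.95 for HBA1 and -2.46 for HBG1. For HBA2 it was -4.89 and for HBG2 -4.95, with the THP-1 periplocin library, which was at 0, set to 3 counts. HBA2 and HBG2 share nearly all their coding bases with HBA1 and HBG1, and the part of read splitting in these values was not tested. The differences of the alpha-type sum, -2.94, and of the gamma sum with the overlapping loci, -2.63, do not rest on that split.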

How the results depend on the processing

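No paired analysis was possible because the labels give no replicate numbers and each condition has 1 library, and for the same reason no library could be left out. No value changed direction under any alternative run. The 8 calls in K562 were kept under each alternative scaling and filter and at dispersions of 0.01 and 0.04, but at a dispersion of 0.16 1 member, HBA2, was called. With calls limited to log2 changes of 2 or more, HBQ1 and HBE1 were lost, and 960 genes were called in K562 and 969 in THP-1. Between the DMSO libraries 6761 genes were called, with 3359 called at 0.16 and 4258 at that limit. Genes called in K562 and THP-1 numbered 1728 and 1622 at 0.04 and 100 and 88 at 0.16, against 2908 and 2890. Of the 2 THP-1 members called lower, 1 was left at a dispersion of 0.04, 0 at 0.16 and 0 with a mean of at least 1 CPM required, and with the pairs summed 1 call was left, the gamma pair at a log2 fold change of -1.29 (adjusted p = 0.00262), although with the overlapping loci its interval included no change. The 5 members whose responses differed between the lines became 3 at 0.04 and 2 at 0.16. The log2 ratio of the beta-type sum in K562 was 2.15 with DESeq2 size factors and 2.10 with totals that leave out globin and mitochondrially encoded genes, against 2.13.

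Values below are for K562 DMSO and then K562 periplocin. Per kilobase of transcript the shares were 21.7% and 22.5% for HBZ, 77.4% and 77.1% for HBA1 with HBA2, 7.54% and 4.20% for HBE1 and 92.4% and 95.8% for the gamma pair. With the overlapping loci, an alternative chosen after seeing the data, HBE1 was 8.48% and 4.79% and the gamma pair 91.5% and 95.2%. The alpha-type to beta-type ratio was 0.389 and 0.787 per kilobase of transcript, 0.361 and 0.739 per kilobase of coding sequence, also chosen after seeing the data, and 0.294 and 0.604 with the overlapping loci. Without mitochondrially encoded genes in the total, globins took 0.199% and 1.07% of counts. Depth limited THP-1, where no member exceeded 24 counts.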

Other observations

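In the DMSO libraries the genes around globin production also stood apart between the lines. Of 19 red cell membrane and enzyme genes 18 were called lower in THP-1 than in K562 and 1 higher, and of 13 genes for heme supply and the alpha-chain chaperone 7 were lower and 1 higher, against 19.5% and 21.7% of all genes tested. Of 30 globin regulators 16 were lower and 7 higher. BCL11A had 3 counts in K562 and 255 in THP-1, a 73.4-fold ratio with a counting interval of 24.8 to 358, and ZBTB7A had 622 and 1616, 2.24-fold (2.04 to 2.47). MYB had 8071 and 12669 counts, 1.36-fold (1.32 to 1.39). Each value compares 1 library with 1 library.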
